A study of Mus musculus with 6 samples.

Results

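Glutathione and redox defence enzymes are described here across 6 whole-kidney RNA-seq libraries of mice 8 weeks old. The members were chosen by gene symbol: the glutathione S-transferases (Gsta, Gstk, Gstm, Gsto, Gstp, Gstt and Gstz), the microsomal transferases (Mgst), the glutathione peroxidases (Gpx), the peroxiredoxins (Prdx) and the superoxide dismutases Sod1, Sod2 and Sod3. Added by name were Gclc, Gclm, Gss, Gsr, Nqo1, Txn1, Txnrd1, Srxn1, Nfe2l2, Keap1, Mt1 and Mt2. Of 19503 genes with values, 53 were members, and Gpx5 matched the rule but had no values. One group of 3 libraries, NICD2_Pax8, came from kidneys with the genotype R26NICD2/+pax8cre: a Rosa26 allele that encodes the intracellular domain of Notch2, active without ligand once it is expressed, together with a Pax8 driver, whose promoter is active in renal tubule epithelium. The other 3 libraries came from kidneys labelled wild type (WT). A Pax-rtTA driver stands in the series title, but pax8cre in the sample labels, and the WT titles also begin with NICD, so the sources used here settle neither the driver nor whether WT kidneys carried the allele. Whether each library came from its own mouse is not stated, and the p-values below therefore cover variation among these 6 libraries, some of which could be technical. The study asked whether active Notch2 drives cyst growth.

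These enzymes keep reactive oxygen species and electrophiles in check. Superoxide dismutases turn superoxide into hydrogen peroxide, which catalase splits directly and which glutathione peroxidases and peroxiredoxins reduce, mostly with electrons from glutathione or thioredoxin. Glutathione S-transferases attach glutathione to reactive compounds, and metallothioneins bind zinc, copper and cadmium. Many of the genes are known targets of NRF2, the product of Nfe2l2, a transcription factor that KEAP1 holds at low levels until it is oxidised. The proximal tubule, the most oxidative part of the nephron, is known for high levels of several of them, including Gpx3, whose product the kidney secretes into plasma.

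Expression was given as FPKM, the fragments per kilobase of transcript as a share of the library. Depth, estimated from the steps between low values, was 15900000 to 17600000 fragments in NICD2_Pax8 and 14700000 to 15200000 in WT, so 1 FPKM of a 1 kb transcript rested on about 15 to 18 fragments. A row named NOTCH2, with no position or annotation, stood at 500.5, 521 and 570.4 FPKM in the NICD2_Pax8 libraries and at 2.13, 3.75 and 1.27 FPKM in the WT libraries, and mouse Notch2 at 12.2, 12.8 and 13.4 FPKM in NICD2_Pax8 and 5.55, 5.50 and 4.19 FPKM in WT. Most markers along the nephron were lower, under both scalings. The summed FPKM of 8 proximal tubule markers, all 8 called lower, was 129, 590.5 and 359 in NICD2_Pax8 and 4234, 5213 and 6228 in WT, in the order of the replicates. In the thick ascending limb 3 of 4 markers were lower and Umod was not called, with sums of 1006, 1560.5 and 1673 FPKM in NICD2_Pax8 and 1102, 2308 and 1949.7 FPKM in WT. Umod made up most of these sums, at 964, 1463 and 1611 FPKM in NICD2_Pax8 and 658, 1498 and 1198 FPKM in WT. In the collecting duct 4 of 5 were lower and Scnn1g was higher, with sums of 48.7, 67.3 and 63.3 FPKM in NICD2_Pax8 and 92.5, 139.8 and 146 FPKM in WT. Slc22a8 of the proximal tubule was near 0 in NICD2_Pax8 replicates 1 and 3, at 0.08 and 0.27 FPKM. It stood at 11.6 FPKM in NICD2_Pax8 replicate 2 and at 172 to 231 FPKM in WT. Macrophage markers summed to 1119 to 1585 FPKM in NICD2_Pax8 and 272 to 481 FPKM in WT. Cd74 made up most of these sums, at 935, 1327 and 1076 FPKM in NICD2_Pax8 and 339, 268 and 230 FPKM in WT. Cd74, Cd68 and Lyz2, 3 of the 5, were called higher, and Csf1r and Adgre1 were not called. The Lyz2 call was lost without NICD2_Pax8 replicate 2 or WT replicate 2. Without WT replicate 1, limma called Adgre1 higher, at a log2 fold change of 1.12 (adjusted p = 0.0036), and 0.79 after scaling (adjusted p = 0.0145). Csf1r was then lower after scaling, at -0.53 (adjusted p = 0.0478). Over all tested genes 45.1% were called higher, and 28.7% after scaling. WT replicate 1 stood apart: its 5 adrenal cortex markers summed to 3629 FPKM, against at most 1.63 in any other library, with Hsd3b1 at 0 in all 3 NICD2_Pax8 libraries. Its 4 fat markers summed to 2380 FPKM, against 46.8 to 185 in NICD2_Pax8 and 581 and 122 in the other WT libraries.

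All libraries were compared with limma on log2(FPKM + 1) across the 13500 genes that reached 1 FPKM in 3 or more libraries, and a Benjamini-Hochberg adjusted p under 0.05 over all of them was called. Log2 fold changes are NICD2_Pax8 minus WT on that scale, which understates changes of low genes. Unscaled FPKM were shifted as a whole: over all tested genes the log2 fold change had a median of 0.32, and of 0.02 after median-of-ratios scaling, which sets the middle of the expressed genes equal between libraries. Values from scaled FPKM are therefore given beside the unscaled ones where the call or direction differs. In bulk kidney, fewer cells of a type and less RNA per cell cannot be told apart.

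Members went both ways. Of 48 members tested, 15 (31.2%) were higher in NICD2_Pax8 kidneys, where 45.1% of all tested genes were called higher, and 18 (37.5%) were lower, where 16.2% of all tested genes were called lower. After scaling 11 (22.9%) were higher against 28.7% of all tested genes, and 22 (45.8%) were lower against 25.7%. The share called lower thus stood above the share of all genes under both scalings, and the share called higher below it. With quantile normalization 13 members were higher and 18 lower, where 3866 and 3558 of all genes were. After median-of-ratios scaling without WT replicate 1, 14 members were higher and 23 lower, where 4105 and 3600 of all genes were. In these 2 settings the share called higher lay close to that of all genes. This is a description of the counts with no test. The median log2 fold change of the members was 0.08 unscaled and -0.25 scaled. In 16 members every NICD2_Pax8 library was above every WT library, against 49.9% of all tested genes, and in 18 every one was below, against 18.8%. After scaling these were 12 members, against 34.3%, and 23 members, against 30.5%. Gsta1 and Gstp3 passed the filter on low values only through the NICD2_Pax8 libraries and so had to differ. Without them 13 of 46 were higher and 18 lower, and after scaling 9 and 22. Both are also among the 16 members, and the 12 after scaling, in which every NICD2_Pax8 library was above every WT library. Not tested were the low Gpx2, Gstm3, Gstt4, Gsto2 and Mgst2. By q-values of the authors' deposited table, 13 of the 53 members (24.5%) were higher at 0.05, against 21.3% of all their genes, and 22 (41.5%) lower, against 21.5%. There the share called higher thus lay slightly above that of all genes. Those 19439 genes include low ones that the filter here left out, so their shares and the ones above rest on unlike sets of genes. In all, 11 higher and 18 lower members were called the same way by that table and by both scalings here. The 11 include Gsta1 and Gstp3, which had to differ in the fits here.

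**Figure D1:**
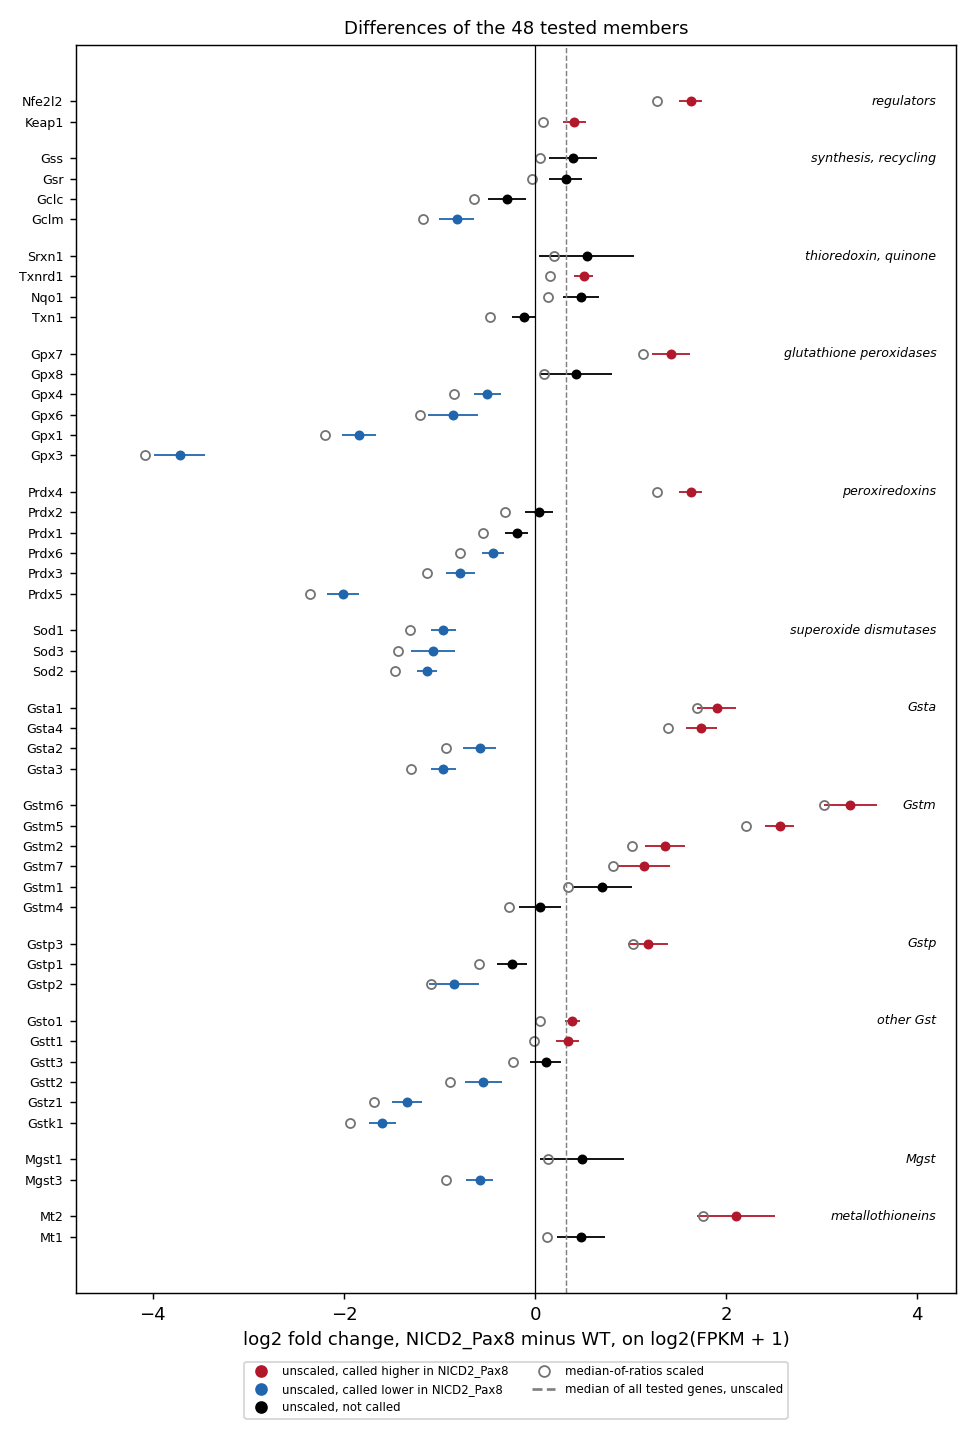
Log2 fold changes (NICD2_Pax8 minus WT, horizontal axis, with limma standard errors as bars) of the 48 tested members by role, unscaled as filled points and median-of-ratios scaled as open circles; the dashed line marks the unscaled median of all tested genes, 0.32. Gpx3 lies farthest left at -3.72 and Gstm6 farthest right at 3.30.

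Secreted glutathione peroxidase accounted for most of the difference in the total. Gpx3 (gene 14778, GRCm38 chromosome 11, 54902152 to 54910387, plus strand) had 1194, 2324 and 1645 FPKM in NICD2_Pax8 and 19537, 22072 and 24372 FPKM in WT, given here as elsewhere by replicate. The groups did not overlap, and the highest NICD2_Pax8 library was still far under the lowest WT library. Gpx3 fell 12.8-fold in mean FPKM (log2 fold change -3.72, SE 0.27, adjusted p = 0.000104), and 16.4-fold after scaling. Gpx3 took 0.231%, 0.434% and 0.315% of summed FPKM in the NICD2_Pax8 libraries and 3.46%, 3.91% and 4.17% in the WT libraries. All members together took 1.58%, 1.86% and 1.84% in NICD2_Pax8 and 5.06%, 5.46% and 5.81% in WT. With Gpx3 left out the share of the members was 1.35% to 1.53% in NICD2_Pax8 and 1.55% to 1.64% in WT, so most of the difference in that total was this 1 gene. Within NICD2_Pax8, Gpx3 was lowest in replicate 1 and highest in replicate 2, the order also seen for the summed proximal tubule markers. The part of that marker change in the Gpx3 level was not tested.

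Of the other peroxidases 3 fell and 1 rose. Gpx1, the cytosolic enzyme, stood at 354, 495 and 372 FPKM in NICD2_Pax8 and 1351, 1299 and 1725 FPKM in WT, 3.58-fold lower in mean FPKM (log2 fold change -1.84, SE 0.18, adjusted p = 0.000282). Gpx4, which reduces lipid peroxides in membranes, stood at 635, 805 and 814 FPKM in NICD2_Pax8 and 1051, 1024 and 1093 FPKM in WT, 1.41-fold lower (log2 fold change -0.50, SE 0.14, adjusted p = 0.019). The fall of Gpx4 was small and its call was lost without WT replicate 3 or without the filter. Gpx6, best known from the olfactory epithelium, was 1.90-fold lower, with 11.8, 16.1 and 18.97 FPKM in NICD2_Pax8 and 20.5, 38.8 and 29.9 FPKM in WT (log2 fold change -0.86, SE 0.26, adjusted p = 0.0241). The Gpx6 call was lost without NICD2_Pax8 replicate 1 or 2 or WT replicate 2 or 3. Gpx7, which works on protein folding in the endoplasmic reticulum, went the other way, at 9.03, 11.4 and 11.9 FPKM in NICD2_Pax8 and 4.62, 3.14 and 2.58 FPKM in WT, 3.13-fold higher (log2 fold change 1.42, SE 0.20, adjusted p = 0.000958). For Gpx1, Gpx4, Gpx6 and Gpx7 the groups did not overlap. Gpx8, a membrane enzyme of the same compartment, stood at 40.8, 30.4 and 32.6 FPKM in NICD2_Pax8 and 48.9, 20.2 and 16.2 FPKM in WT. The groups overlapped, with WT replicate 1 the highest of all 6 libraries (log2 fold change 0.43, SE 0.38, adjusted p = 0.364). Without that library the log2 fold change of Gpx8 was 0.89 (SE 0.16, adjusted p = 0.00419), and 0.49 after scaling (adjusted p = 0.03). Gpx2, the epithelial enzyme of the gut, stood at 1.22, 0.95 and 0.80 FPKM in the NICD2_Pax8 libraries and was listed at 0 in the WT libraries, too low for the filter.

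Among the members, Gpx1, Gpx2, Gpx3, Gpx4 and Txnrd1 carry an annotated selenocysteine, the selenium amino acid written by a TGA codon that would otherwise stop translation. It is a feature the choice of members did not use, and their coding strands around that codon (GRCm38, GENCODE M21 transcripts, TGA in capitals) show how these mRNAs differ from those of the other members, in which no such codon is annotated.
Gpx1 (codon 47 of 201): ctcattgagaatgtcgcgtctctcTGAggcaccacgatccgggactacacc
Gpx2 (codon 40 of 190): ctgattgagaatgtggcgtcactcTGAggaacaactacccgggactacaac
Gpx3 (codon 73 of 226): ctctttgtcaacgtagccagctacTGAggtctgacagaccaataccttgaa
Gpx4 (codon 129 of 253): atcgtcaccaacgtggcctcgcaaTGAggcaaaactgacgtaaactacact
Txnrd1 (codon 612 of 613): ggagacatcctccagtctggctgcTGAggt
In the 4 peroxidases the codon lies inside the reading frame, and the base triplet after it is a glycine codon in each. In Txnrd1 it is the last codon but 1, and the coding stretch ends right after it. Of the 4 selenium members tested, Gpx1, Gpx3 and Gpx4 fell, whereas Txnrd1 stood at 84.6, 79.6 and 84.1 FPKM in NICD2_Pax8 and 64.4, 57.5 and 52.4 FPKM in WT, 1.42-fold higher (log2 fold change 0.51, SE 0.10, adjusted p = 0.00531). After scaling Txnrd1 was no longer called, at 0.16 (adjusted p = 0.15).

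Genes that supply selenium or build selenoproteins were listed apart from the members. Of 8 tested 1 (12.5%) was higher and 4 (50%) lower, against 45.1% and 16.2% of all tested genes. After scaling 0 were higher and 4 (50%) lower, against 28.7% and 25.7%. These shares of all genes are the ones to set beside each list that follows and each class of members, and no list or class was tested. The median log2 fold change of this list was -0.25, against 0.32 over all genes. Selenop, the plasma selenium carrier, named after its values were seen, stood at 212, 423 and 538 FPKM in NICD2_Pax8 and 1052, 1251 and 1398 FPKM in WT. Lrp2, megalin, through which the proximal tubule takes up that carrier, stood at 11.7, 24.2 and 24.5 FPKM in NICD2_Pax8 and 92.1, 137 and 122.9 FPKM in WT (log2 fold change -2.54, SE 0.30, adjusted p = 0.000526). Sephs1, related to the selenophosphate synthetase but lacking its selenocysteine, was 16.0 to 18.1 FPKM in NICD2_Pax8 and 11.5 to 11.7 FPKM in WT (log2 fold change 0.50, SE 0.09, adjusted p = 0.00366), and was not called after scaling, at 0.17 (adjusted p = 0.228). The groups did not overlap for Lrp2 or Selenop. Lrp2 is also 1 of the 8 proximal tubule markers above.

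All 3 superoxide dismutases fell, under both scalings. Sod1 (gene 20655, chromosome 16, 90220762 to 90226333), the cytosolic copper and zinc enzyme, stood at 492, 541 and 531 FPKM in NICD2_Pax8 and 1130.2, 929 and 983 FPKM in WT, 1.95-fold lower (log2 fold change -0.96, SE 0.13, adjusted p = 0.0008). Sod2, the mitochondrial manganese enzyme, stood at 42.9, 49.2 and 50.3 FPKM in NICD2_Pax8 and 101, 104 and 109 FPKM in WT, 2.20-fold lower (log2 fold change -1.13, SE 0.10, adjusted p = 0.000183). Sod3, the secreted enzyme, stood at 91.5, 167 and 159 FPKM in NICD2_Pax8 and 277, 290.3 and 285 FPKM in WT, 2.04-fold lower (log2 fold change -1.07, SE 0.23, adjusted p = 0.00615). For each of the 3 the groups did not overlap, and their log2 fold changes lay between -1.13 and -0.96. Catalase, Cat, which removes peroxide in peroxisomes and is no member, stood at 108, 179 and 186 FPKM in NICD2_Pax8 and 518, 592 and 619 FPKM in WT (log2 fold change -1.90, SE 0.22, adjusted p = 0.000504).

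Of 6 peroxiredoxins 3 fell and 1 rose, and after scaling 4 and 1. Prdx5 (gene 54683, chromosome 19, 6906697 to 6910106), found in mitochondria and peroxisomes, stood at 196, 266 and 211 FPKM in NICD2_Pax8 and 763, 958 and 989 FPKM in WT, 4.03-fold lower (log2 fold change -2.01, SE 0.17, adjusted p = 0.000147). Prdx3, the mitochondrial enzyme, stood at 93.7, 101 and 101 FPKM in NICD2_Pax8 and 212, 145 and 159 FPKM in WT, 1.75-fold lower (log2 fold change -0.78, SE 0.15, adjusted p = 0.00438). Prdx6, which uses glutathione, stood at 75.7, 94.02 and 94.5 FPKM in NICD2_Pax8 and 114, 118 and 126 FPKM in WT and was 1.36-fold lower (log2 fold change -0.44, SE 0.12, adjusted p = 0.016), and this call was lost without WT replicate 3. Those 3 were lower in each NICD2_Pax8 library than in any WT library. Prdx4 (gene 53381, chromosome X, 155323918 to 155342272), the peroxiredoxin of the endoplasmic reticulum, rose, with 80.9, 88.2 and 95.4 FPKM in NICD2_Pax8 and 25.7, 32.02 and 26 FPKM in WT, 3.16-fold higher (log2 fold change 1.63, SE 0.12, adjusted p = 0.000105). Prdx1, the most abundant of the family, stood at 529, 555 and 615 FPKM in NICD2_Pax8 and 589.6, 665 and 684 FPKM in WT, with overlapping groups and no call (log2 fold change -0.19, SE 0.12, adjusted p = 0.213). After scaling Prdx1 was lower, at -0.54 (adjusted p = 0.0236). Prdx2 had a log2 fold change of 0.04 (95% interval -0.31 to 0.38), and its sign turned after scaling, to -0.31 (adjusted p = 0.074).

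**Figure D2:**
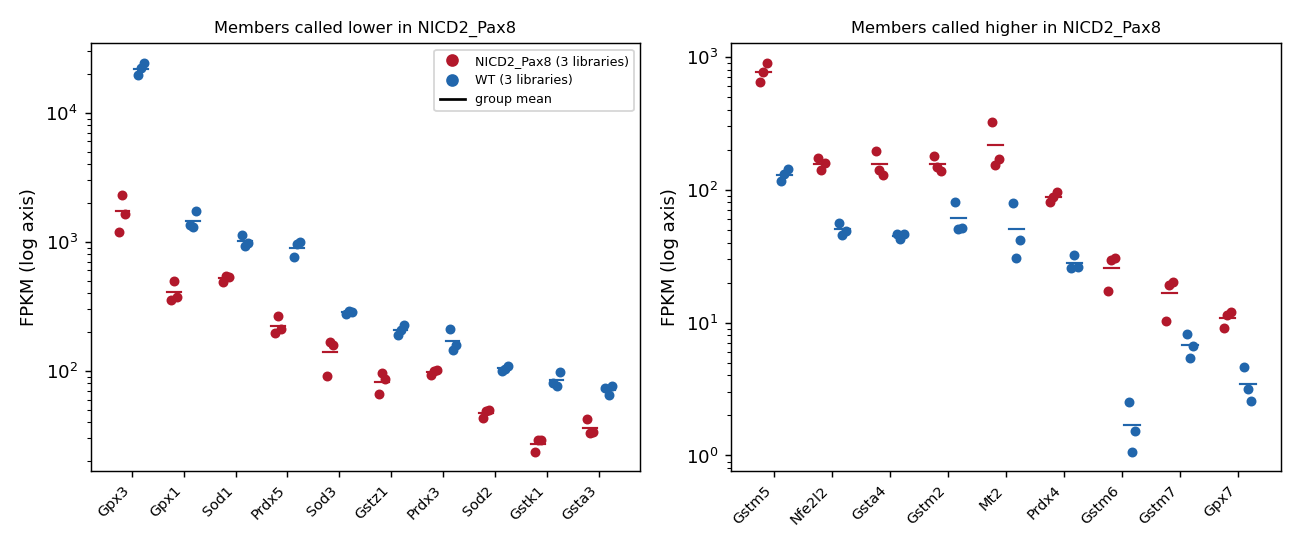
FPKM (log axis) of members called lower (left panel) and higher (right panel) in NICD2_Pax8 kidneys, each library as a point, NICD2_Pax8 left of WT, with bars at the group means. Gpx3 spans 1194 to 2324 FPKM in NICD2_Pax8 and 19537 to 24372 FPKM in WT, and for every gene plotted the 2 groups are apart.

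The mRNA of NRF2 rose, while genes known as its targets went both ways. Nfe2l2 (gene 18024, chromosome 2, 75675513 to 75704663) stood at 172, 139.8 and 159.5 FPKM in NICD2_Pax8 and 56.3, 45.9 and 48.5 FPKM in WT, 3.13-fold higher (log2 fold change 1.63, SE 0.12, adjusted p = 0.00011). Every NICD2_Pax8 library was above every WT library, and after scaling the log2 fold change was 1.28 (adjusted p = 0.00025). Keap1, its inhibitor, stood at 18.1, 20.2 and 20.6 FPKM in NICD2_Pax8 and 16.8, 13.9 and 12.99 FPKM in WT (log2 fold change 0.41, SE 0.12, adjusted p = 0.0234). The Keap1 call was lost after scaling, at 0.08 (adjusted p = 0.534), with quantile normalization or the replicate number as a block, and without NICD2_Pax8 replicate 2 or 3 or WT replicate 2 or 3. Nqo1, a quinone reductase and a textbook NRF2 target, stood at 31.6, 39.4 and 37.98 FPKM in NICD2_Pax8 and 19.3, 28.4 and 30.4 FPKM in WT (log2 fold change 0.48, SE 0.19, adjusted p = 0.0569). The Nqo1 groups did not overlap, but the difference was not called over all 6 libraries. Without WT replicate 3 it was called, at 0.60, and with the replicate number as a block its adjusted p was 0.0186. After scaling it was 0.14 (adjusted p = 0.626). Srxn1, which repairs over-oxidised peroxiredoxins, stood at 54.5, 49.7 and 51.1 FPKM in NICD2_Pax8 and 86.9, 20.4 and 24.2 FPKM in WT (log2 fold change 0.54, SE 0.50, adjusted p = 0.379). The highest library was WT replicate 1, the one with adrenal and fat transcripts. Without that library the log2 fold change of Srxn1 was 1.18 (SE 0.11, adjusted p = 0.000378), and 0.78 after scaling (adjusted p = 0.00279). The part of those tissues in this library's Srxn1 level was not tested. Txn1, thioredoxin itself, stood at 248, 198 and 221 FPKM in NICD2_Pax8 and 230.1, 231 and 260.3 FPKM in WT (log2 fold change -0.12, SE 0.12, adjusted p = 0.436), and after median-of-ratios scaling it was lower, at -0.47 (adjusted p = 0.0303). With quantile normalization the log2 fold change of Txn1 was 0.07, so its fall depended on the scaling.

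Of the 4 enzymes that make and recycle glutathione 1 was called lower and 0 higher, and after scaling 2 and 0. Gclm, the regulatory subunit of the rate-limiting ligase and another NRF2 target, stood at 60.1, 61.9 and 69.7 FPKM in NICD2_Pax8 and 88.8, 144 and 113 FPKM in WT, 1.81-fold lower (log2 fold change -0.82, SE 0.18, adjusted p = 0.00714). Gclc, the catalytic subunit, stood at 54.3, 54.9 and 77.3 FPKM in NICD2_Pax8 and 72.2, 94.4 and 61.95 FPKM in WT (log2 fold change -0.29, SE 0.20, adjusted p = 0.253), and was lower after scaling, at -0.64 (adjusted p = 0.0379). With quantile normalization Gclc was not called. The groups did not overlap for Gclm and overlapped for Gclc, and neither subunit was called higher. Gss, the synthetase of the last step, stood at 147, 222 and 204 FPKM in NICD2_Pax8 and 99.8, 177 and 163 FPKM in WT, with a log2 fold change of 0.40 (95% interval -0.21 to 1.01). Gsr, which returns oxidised glutathione to the reduced form, stood at 71.3, 67.5 and 59.9 FPKM in NICD2_Pax8 and 54.7, 64.4 and 41.97 FPKM in WT, with a log2 fold change of 0.32 (95% interval -0.08 to 0.71; -0.03 after scaling). The groups overlapped for Gss and for Gsr, and neither was called. With the replicate number as a block Gss was called (adjusted p = 0.0255).

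**Figure D3:**
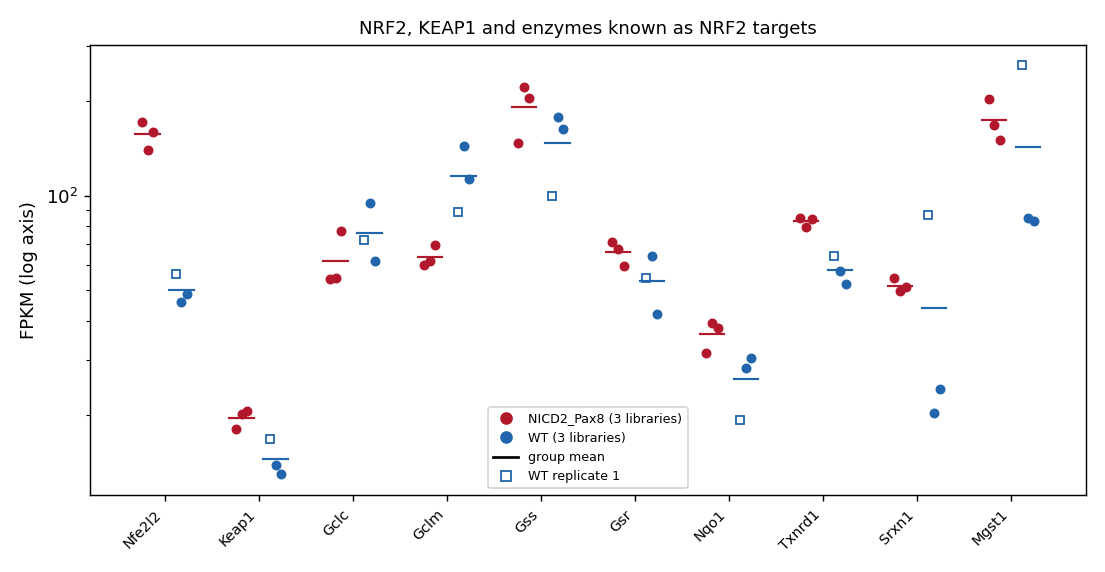
FPKM (log axis) of Nfe2l2, Keap1 and enzymes of glutathione synthesis and redox defence, each library as a point, NICD2_Pax8 left of WT, bars at the group means and WT replicate 1 as an open square. Nfe2l2 is apart (139.8 to 172 FPKM in NICD2_Pax8, 45.9 to 56.3 in WT), Gclm is lower in NICD2_Pax8, and the open square is the highest of the 6 libraries for Srxn1 and Mgst1.

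Partners and further targets of NRF2 were read from lists kept apart from the members. Of 8 regulators and partners 3 (37.5%) were higher and 1 (12.5%) lower, and after scaling 1 (12.5%) and 3 (37.5%), with a median log2 fold change of 0.20. Maff, a small MAF protein that binds DNA with NRF2, stood at 25.7, 22.9 and 19.7 FPKM in NICD2_Pax8 and 4.25, 1.26 and 1.36 FPKM in WT (log2 fold change 2.96, SE 0.33, adjusted p = 0.000423), a rise of 9.94-fold in mean FPKM, or 17.4-fold without WT replicate 1. Bach1, a repressor at the same DNA sites, stood at 10.6, 8.88 and 9.50 FPKM in NICD2_Pax8 and 5.86, 5.76 and 6.59 FPKM in WT (log2 fold change 0.59, SE 0.11, adjusted p = 0.00374), and was not called after scaling, at 0.28 (adjusted p = 0.0997). Of 15 further target genes tested 4 (26.7%) were higher, where 45.1% of all tested genes were, and 5 (33.3%) lower, where 16.2% were. After scaling 3 (20%) were higher, against 28.7%, and 8 (53.3%) lower, against 25.7%. Their median log2 fold change was -0.18. These counts depended on WT replicate 1. After scaling without that library, 4105 of all genes were higher and 3600 lower. There G6pdx (0.44, adjusted p = 0.0131), Pgd (0.31, adjusted p = 0.0267) and Tkt (1.46, adjusted p = 0.000445) were called higher too. Hmox1 was then called lower, at -0.38 (adjusted p = 0.0413), and Blvrb lost its lower call (adjusted p = 0.0893). Ephx1, a microsomal epoxide hydrolase, stood at 173, 202 and 184 FPKM in NICD2_Pax8 and 49.6, 32.1 and 31.7 FPKM in WT (log2 fold change 2.30, SE 0.18, adjusted p = 0.000132). Me1, a cytosolic source of NADPH, stood at 27.5, 42.1 and 37.9 FPKM in NICD2_Pax8 and 329, 231 and 219 FPKM in WT (log2 fold change -2.82, SE 0.21, adjusted p = 0.000109). In both genes the groups did not overlap, and the calls held after scaling.

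Among the glutathione S-transferases the mu class held the largest rises. The 7 genes of the mu class summed to 1314, 1713 and 2195 FPKM in NICD2_Pax8 and 589.9, 687 and 672 FPKM in WT. Of 6 mu genes tested 4 were higher and 0 lower, with the same calls after median-of-ratios scaling. Of all tested genes 45.1% were higher and 16.2% lower, and after scaling 28.7% and 25.7%. Gstm5 (gene 14866, chromosome 3, 107895854 to 107898685) stood at 649.8, 768 and 899.7 FPKM in NICD2_Pax8 and 117, 130.4 and 142 FPKM in WT, 5.96-fold higher (log2 fold change 2.56, SE 0.15, adjusted p = 5.87e-05). Gstm6 stood at 17.2, 29.5 and 30.5 FPKM in NICD2_Pax8 and 2.51, 1.07 and 1.53 FPKM in WT, 15.1-fold higher (log2 fold change 3.30, SE 0.28, adjusted p = 0.000154), the largest rise among the tested members. Gstm2 was 2.55-fold higher in mean FPKM (log2 fold change 1.36, SE 0.21, adjusted p = 0.00149). Gstm7 was 2.46-fold higher (log2 fold change 1.14, SE 0.27, adjusted p = 0.00953), a call lost with quantile normalization. For these 4 genes the groups did not overlap. Gstm1, the most abundant of the class in WT kidney, stood at 449.7, 736 and 1090.4 FPKM in NICD2_Pax8 and 371, 489 and 461 FPKM in WT (log2 fold change 0.70, SE 0.31, adjusted p = 0.0923). NICD2_Pax8 replicate 1 lay within the WT range. Gstm1 was not called over all 6 libraries, but was called without that library, at 1.03, and with the replicate number as a block (adjusted p = 0.035). Gstm4 stood at 7.25, 11.1 and 14.2 FPKM in NICD2_Pax8 and 9.88, 10.5 and 9.99 FPKM in WT, a log2 fold change of 0.05 (95% interval -0.47 to 0.57; -0.27 after scaling). Gstm3 was too low to test, at 0.53, 0.77 and 1.61 FPKM in NICD2_Pax8 and 0.06, 0.19 and 0 FPKM in WT.

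These 7 mu genes lie within 149.3 kb of chromosome 3. In their order from Gstm5 they had log2 fold changes of 2.56, 1.14 for Gstm7, 3.30 for Gstm6, 1.36 for Gstm2, 0.70 for Gstm1 and 0.05 for Gstm4, with the untested Gstm3 between Gstm6 and Gstm2. The largest differences lay among the first 3 genes, with no steady order. Differences between these genes were not tested against each other. Some of their distinct 50-base stretches also occur in transcripts of other genes: 28.8% for Gstm3, 18.9% for Gstm1 and 9.4% for Gstm5. The share was 6.0% for Gstm6, 5.7% for Gstm2, 0.5% for Gstm7 and 0.0% for Gstm4. Levels of the mu genes with shared stretches carry that uncertainty.

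The alpha class was divided. Gsta4, known for clearing the lipid peroxidation product 4-hydroxynonenal, stood at 195, 141 and 129.7 FPKM in NICD2_Pax8 and 46.05, 42.6 and 46.5 FPKM in WT, 3.45-fold higher (log2 fold change 1.74, SE 0.16, adjusted p = 0.000216). Gsta2, the most abundant of the class, stood at 227, 183 and 175 FPKM in NICD2_Pax8 and 274, 252 and 352 FPKM in WT, 1.50-fold lower (log2 fold change -0.58, SE 0.17, adjusted p = 0.0204). Its call was lost with quantile normalization, and without NICD2_Pax8 replicate 2, NICD2_Pax8 replicate 3 or WT replicate 3. Gsta3, which also acts on steroids, stood at 42.5, 32.8 and 33.9 FPKM in NICD2_Pax8 and 73.2, 64.7 and 76.2 FPKM in WT, 1.96-fold lower (log2 fold change -0.96, SE 0.13, adjusted p = 0.000906). The summed level of the 4 genes was 468.8, 362.5 and 342.3 FPKM in NICD2_Pax8 and 393.7, 360.3 and 475.2 FPKM in WT, with overlapping groups. Gsta1 stood at 4.82, 5.10 and 3.25 FPKM in NICD2_Pax8 and 0.16, 0.63 and 0.54 FPKM in WT (log2 fold change 1.90), given with no test, since it passed the filter only through the group where it is high. Its value is also uncertain: of its distinct 50-base stretches 90.5% also occur in transcripts of other genes, first Gm3776 and Gsta2, and 49.8% of those of Gsta2 occur elsewhere, so the counting may have divided fragments between them. No such stretch of Gsta4 was shared.

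**Figure D4:**
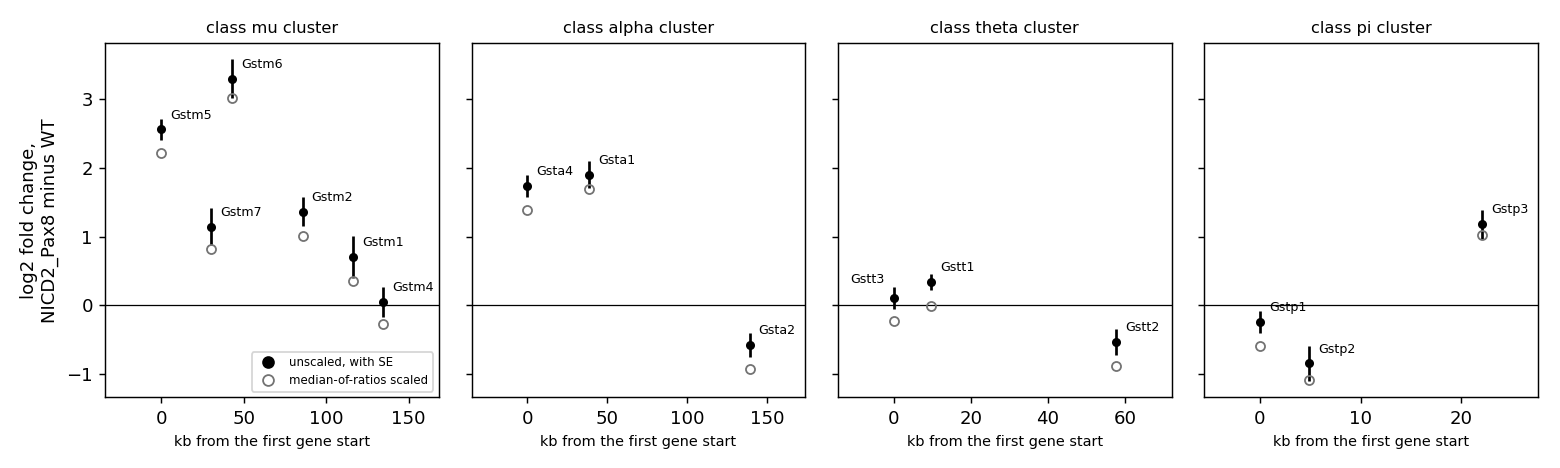
Log2 fold changes (NICD2_Pax8 minus WT) of the tested genes of 4 transferase classes against their distance in kb from the start of the first gene of each cluster, unscaled as filled points with limma standard errors and scaled as open circles. In the mu cluster the values run from 3.30 (Gstm6) to 0.05 (Gstm4), and in the alpha cluster Gsta4 lies above 0 and Gsta2 below it. Gsta1 and Gstp3 are drawn although they passed the filter only through NICD2_Pax8.

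Of 6 tested transferases of the classes kappa, zeta, omega and theta 3 were lower and 2 higher, and after scaling 3 and 0. Gstk1, the class kappa enzyme of mitochondria and peroxisomes, stood at 23.8, 29.1 and 29.4 FPKM in NICD2_Pax8 and 81.2, 76.2 and 98.3 FPKM in WT, 3.11-fold lower (log2 fold change -1.60, SE 0.14, adjusted p = 0.000166). Gstz1, an enzyme of tyrosine breakdown, stood at 65.8, 95.8 and 86.6 FPKM in NICD2_Pax8 and 189.7, 208 and 227 FPKM in WT, 2.52-fold lower (log2 fold change -1.34, SE 0.16, adjusted p = 0.000547). The groups did not overlap for either gene. Gsto1, the class omega enzyme, stood at 79.9, 83.5 and 77.7 FPKM in NICD2_Pax8 and 62.9, 60.3 and 59.5 FPKM in WT (log2 fold change 0.39, SE 0.08, adjusted p = 0.00617), and was not called after scaling, at 0.05 (adjusted p = 0.685). Gstt1, of class theta, stood at 106, 126 and 120.0 FPKM in NICD2_Pax8 and 91.6, 83.5 and 102 FPKM in WT (log2 fold change 0.34, SE 0.12, adjusted p = 0.039), but the call was lost after scaling, at -0.01 (adjusted p = 0.971), and without NICD2_Pax8 replicate 2 or 3 or WT replicate 1 or 2. Gstt2 was 1.48-fold lower (log2 fold change -0.54, SE 0.19, adjusted p = 0.0438), and this call was lost without the filter, and without any 1 library other than WT replicate 1. Gstt3 had a log2 fold change of 0.11 (95% interval -0.26 to 0.48; -0.23 after scaling). Gsto2 and Gstt4 were at most 0.64 FPKM in any library.

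Of the 2 pi genes that passed the filter through both groups, 1 fell. Gstp1, the main pi transferase, stood at 173, 239 and 207 FPKM in NICD2_Pax8 and 269.5, 207 and 252 FPKM in WT (log2 fold change -0.24, SE 0.16, adjusted p = 0.235), and was lower after median-of-ratios scaling, at -0.59 (adjusted p = 0.0227). With quantile normalization Gstp1 was not called, at -0.05. Gstp2 stood at 1.25, 2.57 and 1.60 FPKM in NICD2_Pax8 and 5.80, 3.55 and 2.92 FPKM in WT, 2.26-fold lower (log2 fold change -0.85, SE 0.26, adjusted p = 0.0263), a call lost without NICD2_Pax8 replicate 1, NICD2_Pax8 replicate 3 or WT replicate 2. Among the 50-base stretches of Gstp1 33.7% and of Gstp2 54.3% occur in other transcripts, first in each other, so the split between them is uncertain. Gstp3, none of whose stretches was shared, stood at 2.25, 2.46 and 2.04 FPKM in NICD2_Pax8 and 0.94, 0.23 and 0.23 FPKM in WT, a ratio of 4.82 in mean FPKM (log2 fold change 1.18), or of 9.78 without WT replicate 1. It too passed the filter only through NICD2_Pax8 and is given with no test. With any 1 NICD2_Pax8 library left out Gsta1 and Gstp3 did not pass the filter.

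Microsomal transferases, which sit in membranes and act on leukotrienes and lipid peroxides as well as on foreign compounds, gave 1 fall among 2 tested. Mgst3 stood at 57.6, 78.5 and 76.99 FPKM in NICD2_Pax8 and 102, 110.5 and 105 FPKM in WT, 1.49-fold lower (log2 fold change -0.58, SE 0.14, adjusted p = 0.00971). Mgst1, the most abundant, stood at 204, 167 and 150.5 FPKM in NICD2_Pax8 and 260.1, 84.9 and 82.9 FPKM in WT (log2 fold change 0.49, SE 0.44, adjusted p = 0.36). WT replicate 1 was again the highest library. Without that library the log2 fold change of Mgst1 was 1.03 (SE 0.14, adjusted p = 0.00151), and 0.62 after scaling (adjusted p = 0.0111). Mgst2 stood at 6.01 FPKM in that library and at 0.13 to 0.75 FPKM in the other 5, too low to test. The part of the adrenal and fat transcripts of WT replicate 1 in these levels was not tested.

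Summed by role, the peroxidases averaged 2941 ± 719 FPKM in NICD2_Pax8 and 24569.6 ± 2615 FPKM in WT (SD, n = 3 each, here and in the next sentences). The peroxiredoxins averaged 1192 ± 87.2 FPKM in NICD2_Pax8 and 1993 ± 125 FPKM in WT. The superoxide dismutases averaged 707.5 ± 71.1 FPKM in NICD2_Pax8 and 1403 ± 94.9 FPKM in WT, and the mu transferases 1741 ± 441 FPKM in NICD2_Pax8 and 649.7 ± 52.3 FPKM in WT. In these 4 sums the groups did not overlap, and no test was run on them.

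**Figure D5:**
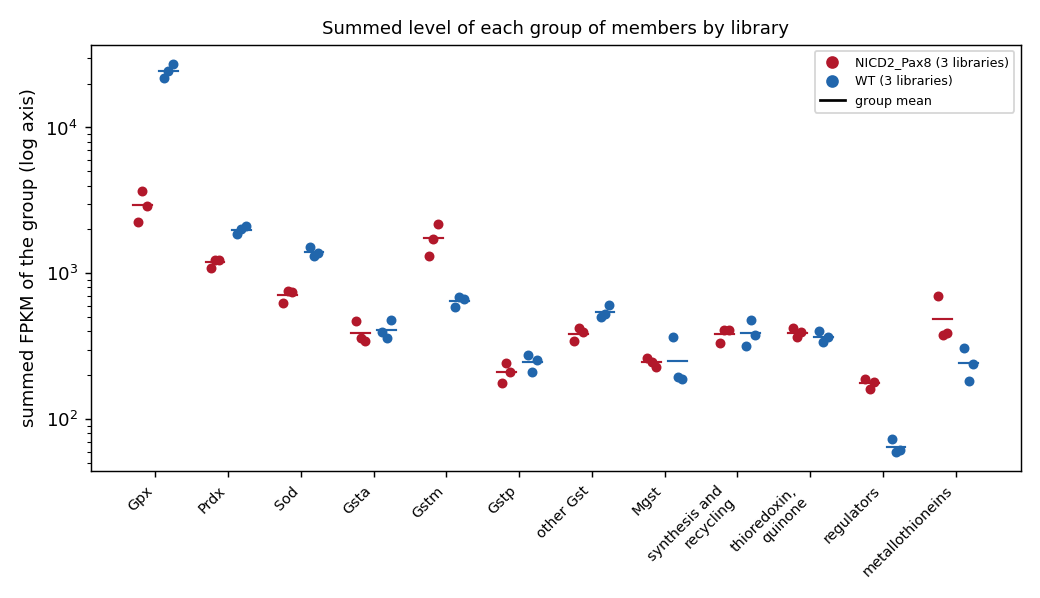
Summed FPKM (log axis) of each group of members in each library, NICD2_Pax8 left of WT, with bars at the group means. The peroxidases (Gpx) sum to 2247 to 3682 FPKM in NICD2_Pax8 and 22013 to 27239 in WT, and the mu transferases (Gstm) to 1314 to 2195 in NICD2_Pax8 and 589.9 to 687 in WT.

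Of the 2 metallothioneins, which bind metals and scavenge radicals, 1 rose. Mt2 (gene 17750, chromosome 8, 94172618 to 94173567) stood at 322, 152 and 171 FPKM in NICD2_Pax8 and 78.95, 30.5 and 41.6 FPKM in WT, 4.27-fold higher (log2 fold change 2.10, SE 0.41, adjusted p = 0.00409). Mt1, its neighbour on the same strand, stood at 373, 228 and 219 FPKM in NICD2_Pax8 and 227, 151 and 199 FPKM in WT (log2 fold change 0.48, SE 0.25, adjusted p = 0.134; 95% interval -0.11 to 1.07). NICD2_Pax8 replicate 1 was the highest library for both genes. The Mt1 groups overlapped and it was not called, whereas with the replicate number as a block it was (adjusted p = 0.0395), and the difference between Mt1 and Mt2 was not tested. Among the 50-base stretches of Mt2, 45.8% also occur in transcripts annotated to Gm45774. Among 4 tested genes of the metal response 1 (25%) was higher and 0 lower, with a median log2 fold change of 0.26, and after scaling limma called 0 in either direction. Mtf1, the transcription factor that senses zinc, stood at 3.88, 4.30 and 4.07 FPKM in NICD2_Pax8 and 3.11, 2.57 and 2.96 FPKM in WT (log2 fold change 0.39, SE 0.11, adjusted p = 0.0222), and was not called after scaling, at 0.12 (adjusted p = 0.396). Slc30a1, a zinc exporter, stood at 19.02, 18.3 and 17.9 FPKM in NICD2_Pax8 and 6.93, 14.5 and 13.5 FPKM in WT (log2 fold change 0.68, SE 0.25, adjusted p = 0.052), and was called without WT replicate 1 or 2. The Mtf1 call was lost without NICD2_Pax8 replicate 2 or 3 or WT replicate 2.

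Promoters from RefSeq (GRCm38.p6, 300 bases around each start) were matched for 47 of the 53 members, in 61 windows. The core of the antioxidant response element, the DNA site of NRF2, was searched as TGACNNNGC on both strands. It occurred in 11 of the 61 member windows, 1 in each of 11 genes, and in 12.4% of all 32851 windows. Of these 11 genes 5 (45.5%) were called higher, against 45.1% of all tested genes, and 3 (27.3%) lower, against 16.2%. After scaling 4 (36.4%) were higher, against 28.7%, and 4 (36.4%) lower, against 25.7%. With so few genes these shares are not read as a result about the motif. Gstm5, Gstm7, Mt2, Nfe2l2 and Txnrd1 were called higher, Gclm, Gsta3 and Sod1 lower, and Mgst1, Prdx1 and Srxn1 were not called.  Shown are 3 such stretches, of a gene that rose and of 2 that fell, with the match in capitals.
Gstm5, chr3:107895754-107895853, plus strand: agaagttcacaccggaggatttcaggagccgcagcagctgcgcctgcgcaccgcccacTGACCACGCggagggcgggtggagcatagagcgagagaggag
Gclm, chr3:122245387-122245486, plus strand: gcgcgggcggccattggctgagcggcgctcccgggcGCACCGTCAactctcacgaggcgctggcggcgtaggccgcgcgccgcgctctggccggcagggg
Sod1, chr16:90220662-90220761, plus strand: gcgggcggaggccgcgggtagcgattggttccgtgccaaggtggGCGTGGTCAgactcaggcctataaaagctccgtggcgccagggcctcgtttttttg
The match in Gstm5 reads along the gene's strand, and those in Gclm and Sod1 on the opposite strand. The motif of RBPJ, through which the Notch2 intracellular domain acts, was searched as GTGGGAA on both strands and occurred in 3 member windows (4.92%), of Gpx4, Gsta3 and Mt2, and in 6.38% of all windows. A match is a description of the letters and not a shown binding site.

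The metal response element core was searched as TGCACNC and TGCGCNC on both strands and occurred in 17 member windows (27.9%) and in 25.7% of all windows. Both metallothionein windows hold it, with 4 matches in that of Mt2 and 3 in that of Mt1. The 100 bases before each RefSeq start are shown because both neighbours hold the motif there.
Mt2, chr8:94172518-94172617, plus strand: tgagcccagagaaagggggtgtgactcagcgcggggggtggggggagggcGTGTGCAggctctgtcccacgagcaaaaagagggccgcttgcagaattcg
Mt1, chr8:94178989-94179088, plus strand: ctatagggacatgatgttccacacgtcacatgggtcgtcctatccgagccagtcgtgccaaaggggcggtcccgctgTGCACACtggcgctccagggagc
Each stretch carries 1 match, on the opposite strand in Mt2 and along the gene's strand in Mt1. The Mt1 stretch lies inside the span given for the gene in the deposited table, whose start is upstream of the RefSeq start.

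Enzymes that break glutathione down or use it mostly fell. Of 13 tested 10 (76.9%) were lower, against 16.2% of all tested genes, and 1 (7.69%) higher, with a median log2 fold change of -1.17 against 0.32. After scaling 11 (84.6%) were lower, against 25.7%, and 1 higher. Dpep1, a brush border dipeptidase that splits cysteinylglycine, stood at 4.33, 10.4 and 5.48 FPKM in NICD2_Pax8 and 85.8, 109.6 and 106 FPKM in WT (log2 fold change -3.78, SE 0.28, adjusted p = 0.000102). Hagh, the second enzyme of the glyoxalase path, stood at 47.04, 57.2 and 56.00 FPKM in NICD2_Pax8 and 114, 131 and 119.8 FPKM in WT (log2 fold change -1.17, SE 0.11, adjusted p = 0.00025). The proximal tubule markers were lower in the same libraries, and their part in these falls was not tested.

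Thioredoxin partners, glutaredoxins and catalase gave 7 lower (43.8%) and 3 higher (18.8%) of 16 tested, with a median log2 fold change of -0.37, and after scaling 10 (62.5%) and 0. Msrb1, a selenoprotein that repairs oxidised methionine, stood at 57.1, 60.8 and 87.2 FPKM in NICD2_Pax8 and 209, 189 and 229 FPKM in WT (log2 fold change -1.62, SE 0.18, adjusted p = 0.000398). Superoxide sources went 4 higher (57.1%) and 2 lower (28.6%) of 7 tested, and after scaling 4 (57.1%) and 3 (42.9%). Nox4, the oxidase of the renal tubule, stood at 35.2, 28.4 and 28.1 FPKM in NICD2_Pax8 and 71.5, 111 and 132 FPKM in WT (log2 fold change -1.71, SE 0.23, adjusted p = 0.000892). Cybb, the catalytic subunit of the phagocyte oxidase, named after its values were seen, stood at 6.69, 6.49 and 7.39 FPKM in NICD2_Pax8 and 4.14, 2.75 and 2.19 FPKM in WT (log2 fold change 0.99, SE 0.19, adjusted p = 0.00371). The groups did not overlap for Nox4 or for Cybb. In the same libraries 3 of 5 macrophage markers were higher, and Csf1r and Adgre1 were not called over all 6 libraries. Adgre1 stood at 5.63 to 7.55 FPKM in NICD2_Pax8 and at 10.95, 3.13 and 1.89 FPKM in WT, and was called higher without WT replicate 1. Csf1r stood at 13.8 to 20.4 FPKM in NICD2_Pax8 and 11.5 to 20.6 FPKM in WT. The part of macrophages in these values was not tested.

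Within NICD2_Pax8 the libraries were not equal. Of the 18 members called lower, 16 had their lowest NICD2_Pax8 value in replicate 1. The share of all genes called lower that did so was not counted, so this is not read as a trait of the members. Replicate 1 also had the lowest sums of proximal tubule, thick ascending limb and collecting duct markers. In NICD2_Pax8 the thick ascending limb sum was mostly Umod and the collecting duct sum mostly Scnn1g. A link between these sums and the members was not tested. Of the 15 called higher, 5 had their highest value in that library and 7 their lowest. Some members overlap other genes, and whether fragments were counted by strand is not given in the sources used here. Prdx5 shares 409 bases with Trmt112 on the other strand, which stood at 70.6 to 78.1 FPKM in NICD2_Pax8 and 39.4 to 54.5 FPKM in WT. Gpx3 shares 2530 bases with Tnip1 on the other strand, which stood at 29.1 to 34.2 FPKM in NICD2_Pax8 and 14.6 to 23.0 FPKM in WT. Both partners were higher in each NICD2_Pax8 library than in any WT library, opposite to the members they overlap. Gpx4 shares 34.7% of its 50-base stretches with annotated pseudogenes, and Sod2 21.0% with other transcripts.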

How the data were processed

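Per the labels' protocols, Trizol RNA of frozen kidneys was sequenced as 6 Illumina TruSeq libraries. The authors deposited FPKM per library, log2 fold changes and q-values, named so per the file headers. Bowtie 0.12.2 and mm8 are named in the submitters' processing notes, but the deposited positions are those of GRCm38 and are given as such. Which tool counted the fragments, and on which annotation, is not given in the sources used here. The table held 23873 rows, of which 4370 had no values. limma 3.58.1 (R 4.3.3, trend, two-sided) was run on log2(FPKM + 1) with genotype as the only term, on genes that reached 1 FPKM in 3 or more libraries, and the fit was tested on simulated data. Log2 fold changes are NICD2_Pax8 minus WT, folds are ratios of mean FPKM, and SE is that of limma. Depth was estimated from low values, of which 71.5% to 78.7% lay within 0.15 of a whole number of fragments, and the estimate carries that error. The alternatives were pseudocounts of 0.1 and 5, no filter, median-of-ratios and quantile scaling, a replicate block, an adjusted p of 0.01, an absolute log2 fold change of 1 and leaving out each library. Named were, in each role, the most abundant member and the largest called rise and fall, further members by a fixed list, and the 2 genes of smallest p in each of 7 pathway lists. One gene that this rule names is not reported here. Other members are named after their values were seen. The members and lists were chosen with earlier results of these data known.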

Additional observations from a re-analysis of the deposited data

How the results depend on the processing

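Of the 48 tested members, 48 kept their direction and side of the threshold with a pseudocount of 0.1 or 5, 46 without a filter, 36 after median-of-ratios scaling and 41 after quantile normalization. Members called lower numbered 7 when a log2 fold change of 1 or more in size was also asked for. Genes of the pathway lists called higher numbered 9 after median-of-ratios scaling and 11 after quantile normalization, against 17. Of all genes, 3873 and 3866 were higher and 3473 and 3558 lower under these 2 scalings, against 6095 higher and 2190 lower, and 3600 were lower after median-of-ratios scaling without WT replicate 1. Leaving out 1 library gave 11 to 17 members higher and 13 to 18 lower, 14 to 22 pathway genes higher and 25 to 30 lower, and 4604 to 6644 of all genes higher and 1625 to 2062 lower. The direction turned for members that were not called, and for Gstt1. After median-of-ratios scaling it was -0.23 for Gstt3, -0.03 for Gsr, -0.27 for Gstm4, -0.31 for Prdx2 and -0.01 for Gstt1. With WT replicate 1 also left out it was -0.43 for Gstt3, -0.11 for Nqo1, -0.07 for Gsr, -0.35 for Gstm4, -0.24 for Prdx2, -0.07 for Gstt1 and -0.27 for Gss. After quantile normalization it was -0.14 for Gstt3, 0.07 for Txn1 and -0.36 for Gstm4. With each library left out in turn, Gstt3 ran between -0.03 (WT replicate 1) and 0.22, Gstm4 between -0.16 (NICD2_Pax8 replicate 3) and 0.29, and Prdx2 between -0.05 (WT replicate 2) and 0.17, with -0.03 without NICD2_Pax8 replicate 2 and -0.02 without WT replicate 3. The cause was not tested.

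With the replicate number as a block 17 members were higher and 18 lower, as were 5818 and 2164 of all genes and 16 and 31 of the pathway genes. Gstm1, Mt1, Nqo1 and Gss gained a call and Keap1 and Gstt1 lost theirs. Residuals of libraries with the same number correlated at 0.095, -0.05 and 0.006, and those of the other pairs at -0.123 to 0.2. With 3 libraries per group these correlations cannot decide whether libraries were paired. The authors also deposited comparisons between libraries of the same replicate number, and the sources used here do not state a pairing.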
